A study of Mus musculus with 8 samples.

Results

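The time course after bilateral common carotid artery stenosis (BCAS) in mice labelled WT comprised 4 of the 8 libraries of the series: 1 sham library collected on day 14 and 1 BCAS library each from days 7, 10, and 14 after the operation. The 4 libraries were chosen by their labels alone. Every WT-labelled mouse was of strain C57BL/6 (male young adults of the substrain C57BL/6J), and the corpus callosum, the large bundle of myelinated fibers between the hemispheres, was dissected and frozen for polyadenylated RNA sequencing. In BCAS, microcoils narrowed both common carotid arteries, and sham surgery used the same anesthesia and exposure without the coils. The other 4 libraries, labelled TRPA1-KO (genotype *Trpa1* -/-), had the same operations and days and are given only beside the WT-labelled values. The comparison asked which genes differed from sham early and returned, which stayed different, and which differed late. Each day had 1 library, so no day could be tested against sham, and day, animal, and library cannot be told apart. The only sham library of the course was from day 14.

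Narrowing of both carotid arteries lowers blood flow to the forebrain, and white matter is the tissue most often damaged by such chronic cerebral hypoperfusion. Astrocytes and microglia answer injury with a known sequence of transcripts: astrocytes raise intermediate filaments, acute-phase proteins, and cytokines, while microglia divide, take up debris, and present antigen. Oligodendrocytes make the myelin of the tract from cholesterol-rich membrane and are replaced from oligodendrocyte precursor cells. In bulk RNA, fewer cells of a type and less RNA per cell cannot be told apart.

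Reads on genes numbered 12952093 in the sham library and 10864679, 7896071, and 9315718 on days 7, 10, and 14. A floor of 3 reads corresponded to 0.235 to 0.378 CPM (counts scaled to the effective library size, as deposited), the unit in which the levels below are given. Intervals and floors cover counting error only, and with 1 library per day they leave out differences between mice. PCR copies are not independent molecules, so the intervals can be too narrow even for counting error. Transcripts of oligodendrocytes (*Mbp*, 5129 to 6495 CPM), astrocytes (*Aqp4*, 80.4 to 188 CPM), and microglia (*Cx3cr1*, 37.9 to 106 CPM) were present in each of the 4 libraries. *Trpa1*, the targeted gene, had 1 read in the 4 libraries labelled WT and 31 reads in the 4 labelled TRPA1-KO. This raises a question about the labels that these reads alone do not settle, since what they cover was not tested. Libraries are therefore named by label throughout.

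Before the time course itself, 3 sets of markers of other tissues stood apart between libraries. The day 7 library held liver transcripts: the summed level of a list of 20 liver genes, drawn up after the values were seen, was 1.49 CPM in sham, 133 CPM on day 7, 1.39 CPM on day 10, and 0.658 CPM on day 14. All 20 genes had reads on day 7, whereas 15 were at 0 reads in sham, 16 on day 10, and 17 on day 14. *Alb*, which encodes serum albumin, had 483 reads on day 7 against 0 in sham, which is at least 183-fold higher with sham set at 3 reads. The library labelled TRPA1-KO of day 7 also held liver transcripts, at 18.4 CPM in sum. Red blood cell markers summed to 63.3 CPM in sham, 4.45 CPM on day 7, 132 CPM on day 10, and 3.29 CPM on day 14. Markers of striatal projection neurons, the cells of the grey matter under the callosum, summed to 1709.8 CPM in sham and to 874, 1266, and 1146 CPM on days 7, 10, and 14. The part of these admixed tissues in the results below was not tested.

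**Figure D1:**
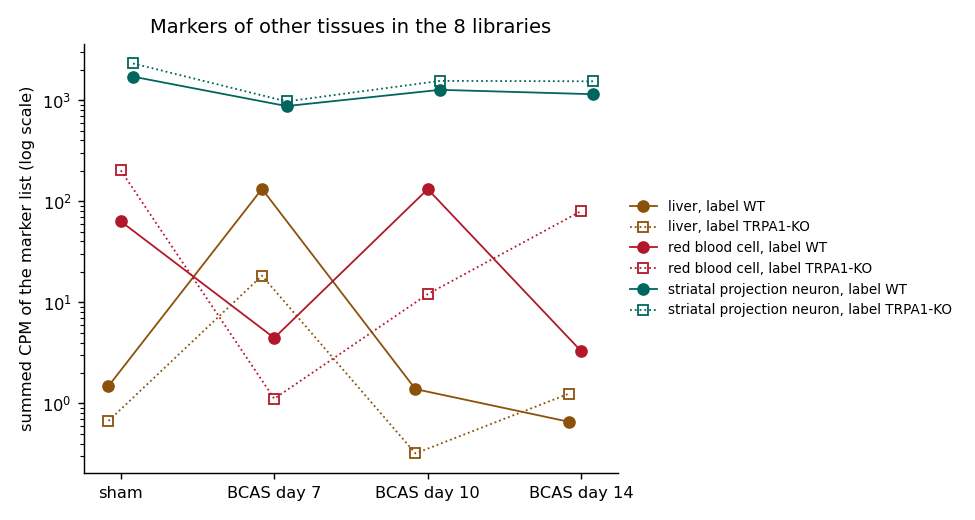
Summed CPM (log scale) of the liver, red blood cell, and striatal projection neuron marker lists in each of the 8 libraries, with filled circles for libraries labelled WT and open squares for those labelled TRPA1-KO. Among the libraries labelled WT, the liver sum was highest on day 7 (133 CPM), the red blood cell sum on day 10 (132 CPM), and the striatal sum in sham (1709.8 CPM).

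Differences from sham were large on day 7, smaller on day 10, and few on day 14. They were taken on log2(CPM + 1), a scale on which low genes change less than their CPM do, for the 15232 of 25239 gene symbols that averaged 1 CPM or more in the 4 libraries. On day 7, 573 genes were at least 2-fold higher than sham on this scale (3.76%) and 44 were at least 2-fold lower (0.289%). On day 10 the counts were 134 higher (0.88%) and 41 lower (0.269%), and on day 14 they were 7 higher (0.046%) and 34 lower (0.223%). The sham library labelled TRPA1-KO differed from the WT-labelled sham by 16 genes higher (0.105%) and 20 lower (0.131%), which is 36 genes against 41 on day 14. At a 4-fold limit, days 7, 10, and 14 had 127, 15, and 0 genes higher and 6, 1, and 7 lower. The median difference over all tested genes was -0.0043, -0.0068, and -0.0080 on days 7, 10, and 14.

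Steps between BCAS days ran mostly downward. From day 7 to day 10, 349 genes were 2-fold lower (2.29%) and 32 were 2-fold higher (0.21%). From day 10 to day 14, 187 genes were lower (1.23%) and 33 were higher (0.217%). With the liver list left out, 564 genes were 2-fold higher on day 7, since all 9 of its tested members were past that limit. That count follows from the size of the list. *Mup13* and *Mup14*, liver genes that are not on the list, stayed in, so the count does not measure the part of liver transcripts. With a pseudocount of 0.1 in place of 1, which gives genes of few reads more weight, 347 genes were 2-fold higher on day 10 and 66 on day 14.

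**Figure D2:**
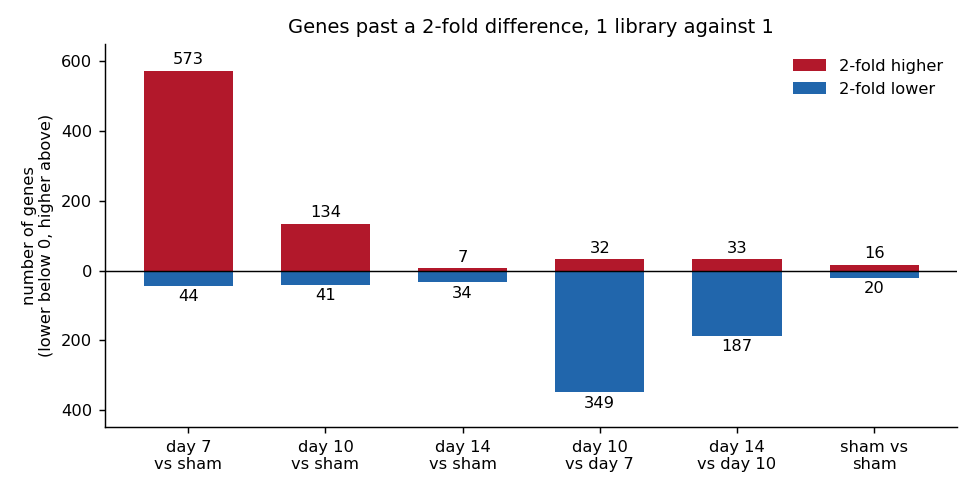
Number of genes at least 2-fold higher (above 0) or lower (below 0) on log2(CPM + 1) in each comparison of 1 library with 1 library. The bars shrink from 573 genes higher on day 7 to 134 on day 10 and 7 on day 14, and the steps from day 7 to 10 and from day 10 to 14 point mostly down (349 and 187 genes); the last pair compares both sham libraries (16 and 20 genes).

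Genes were sorted into courses by fixed limits. A gene was early and faded if it was past 2-fold on day 7 and within 0.5 log2 units of sham, or beyond it on the other side, on day 14. A persisting gene was past 2-fold on all 3 days. A late gene was past 2-fold on day 14, and on day 7 it was within 0.5 of sham or beyond it on the other side. A day 10 gene was past 2-fold on that day, with days 7 and 14 each within 0.5 of sham or beyond it on the other side. By these limits 1 gene, *Emp1*, fell into 2 courses, early higher and late lower. Early and faded was the course of 535 genes that were higher, with median differences from sham of 1.49, 0.55, and -0.04 on days 7, 10, and 14. Of these 535 genes, 88 were still past 2-fold on day 10, 207 were between both limits, and 240 were less than 0.5 above sham, 4 of them more than 0.5 below it. The persisting course held 1 gene that was higher (27 with a pseudocount of 0.1) and 0 that were lower (7). The late course held 4 genes higher and 19 lower, the day 10 course 16 higher and 18 lower, and the early course 16 lower. Counts of the smaller courses moved by over 1.5 times with the pseudocount and the filter. Another 37 genes that were past 2-fold higher on day 7 ended at 0.5 or more above sham on day 14. Just inside the day 7 limit was *Itpripl2*, at 9.54 CPM in sham and 20.1 CPM on day 7, and just outside it *B4galt1*, at 6.57 and 14.1 CPM.

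Leading the early and faded genes was *Spp1*, which encodes osteopontin, a secreted matrix phosphoprotein (chr5:104435111-104441053, GRCm38). Its level was 3.99 CPM in sham, 436 CPM on day 7, 5.80 CPM on day 10, and 3.84 CPM on day 14. Day 7 alone stood high, at 109-fold over sham (95% Clopper-Pearson interval 83.1 to 147), and the interval on day 10 (0.954 to 2.21) included 1. The liver gene *Alb* was second, at a difference of 5.46 log2 units on day 7. *Lilrb4a*, an inhibitory receptor of myeloid cells with a near-identical neighbour, was next with 0.391 CPM in sham and 27.2, 1.76, and 0 CPM on days 7, 10, and 14, and its difference on day 7 (4.34) was level with that of *Mup13* (4.34). *A2m*, a protease inhibitor of the acute phase, was 1.56 CPM in sham and 45.2, 9.96, and 0.658 CPM on the 3 days. *Mup13* (17 reads in sham, 520 on day 7) and *Mup14* (0 reads in sham, 203 on day 7) are liver genes like *Alb*. The major urinary protein genes are near-identical copies, so reads could have been split between them.

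**Figure D3:**
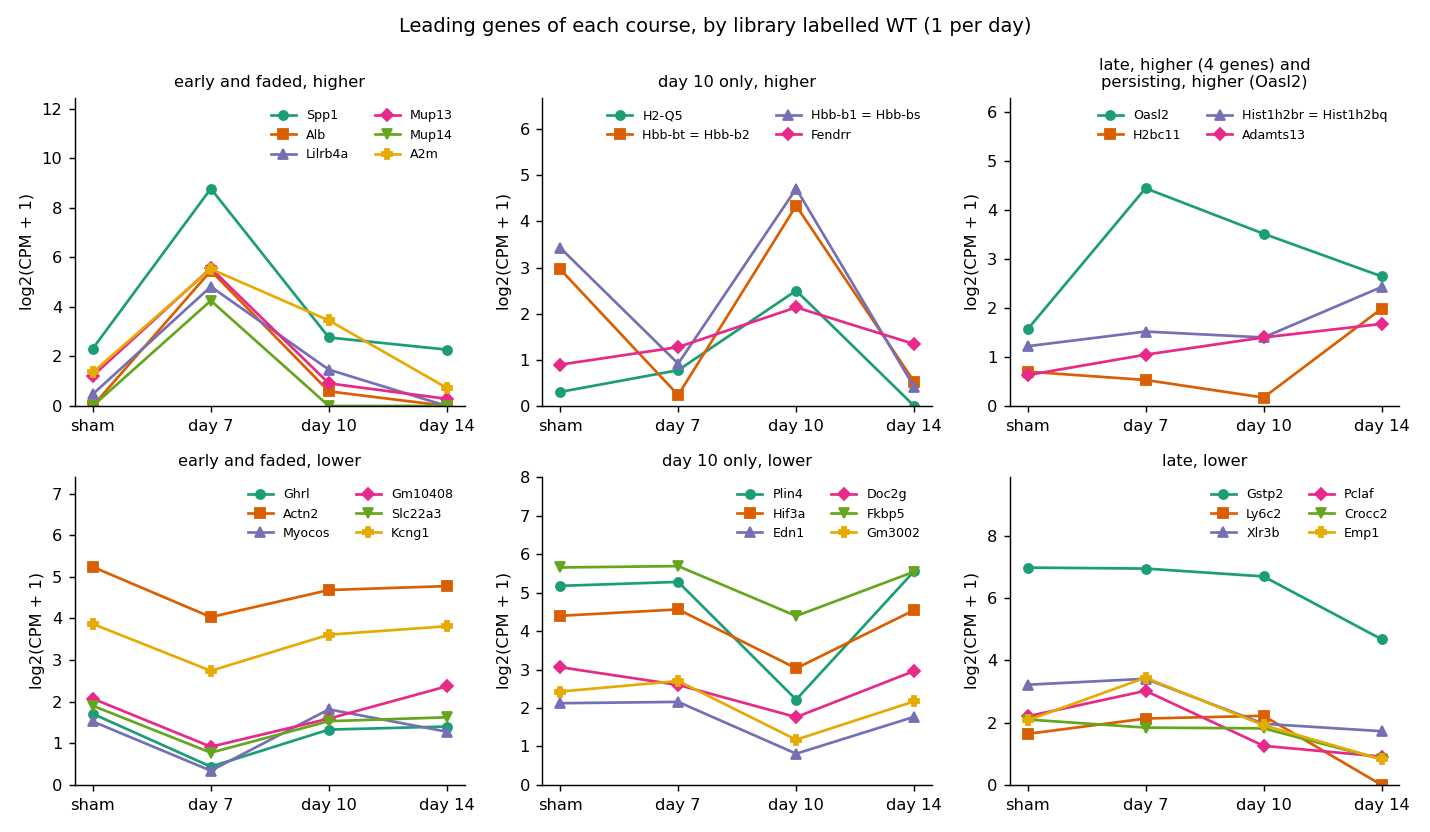
Level, as log2(CPM + 1), of the leading genes of each course in the sham library and on days 7, 10, and 14, with 1 line per gene and 1 library per point; symbols joined by an equals sign have the same values. *Spp1* peaks on day 7 at 436 CPM, *Plin4* dips on day 10 at 3.65 CPM, and *Gstp2* ends lowest on day 14 at 24.6 CPM.

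Pan-reactive astrocyte genes, raised in astrocytes after many kinds of injury, were higher on day 7, lower on day 10, and near sham on day 14. Of the 13 listed, 12 passed the filter, and 9, 4, and 0 of them were 2-fold higher on days 7, 10, and 14. The list median was 1.94, 0.56, and -0.15 on the 3 days, against -0.10, -0.25, and 0.32 in the libraries labelled TRPA1-KO compared with their own sham. *Gfap*, the intermediate filament that defines reactive astrocytes (chr11:102887336-102897200), was 200.4 CPM in sham, 1415 CPM on day 7, 1060.0 CPM on day 10, and 157 CPM on day 14. Days 7 and 10 were 7.06-fold (6.77 to 7.37) and 5.29-fold (5.06 to 5.53) over sham, and day 14 was below it at 0.783-fold (0.734 to 0.836). In the libraries labelled TRPA1-KO, *Gfap* was 234 CPM in sham and 167, 169, and 427 CPM on days 7, 10, and 14. *Serpina3n*, a secreted serine protease inhibitor (chr12:104406646-104414334), was 11.97 CPM in sham and 212, 53.3, and 10.6 CPM on days 7, 10, and 14. *Vim*, which encodes vimentin, was 36.1 CPM in sham and 324, 109, and 30.0 CPM. Of the list's members 2-fold higher on day 7, 4 remained past the limit on day 10 (*Gfap*, *Serpina3n*, *Vim*, and the hyaluronan receptor *Cd44*), whereas *Lcn2*, which encodes the iron-trafficking protein lipocalin 2, went from 105 reads on day 7 to 4 on day 10, next to 6 in sham.

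Lists of genes tied to neuroinflammation (A1) and to ischemia (A2) in astrocytes were alike on day 7, with 7 of 12 and 7 of 11 members 2-fold higher, and parted on day 10, when 3 and 0 were past that limit. Their medians were 1.26, 0.58, and -0.30 for A1 and 1.15, 0.02, and -0.16 for A2. The A1 list shares *H2-D1*, *H2-T23*, and *Psmb8* with the MHC class I list below and *Serping1* with the complement list. *H2-D1* was among the A1 genes past 2-fold on day 10, so the A1 and MHC class I results are not separate. *Tgm1*, a transglutaminase on the A2 list, had 2 reads in sham and 214, 9, and 2 reads on days 7, 10, and 14. *Ggta1*, an enzyme of glycan synthesis on the A1 list, was 4.46 CPM in sham and 16.9, 12.1, and 3.29 CPM. *Fkbp5*, also on the A1 list, was 2-fold lower on day 10 and is described with the day 10 genes. Homeostatic astrocyte genes moved less: 0 of 15 were past 2-fold on any of the 3 days, with medians of 0.35, 0.15, and 0.03. Among them *Aldh1l1*, a folate enzyme used to mark astrocytes, was 51.2 CPM in sham and 94.5, 83.3, and 55.3 CPM.

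Microglial genes followed the same course. Disease-associated microglia genes, which mark the phagocytic and lipid-handling state, were 2-fold higher in 14, 4, and 0 of 18 members on days 7, 10, and 14, with medians of 1.73, 0.67, and -0.01. *Gpnmb*, a lysosomal membrane glycoprotein, was 1.17 CPM in sham and 78.3, 8.70, and 2.41 CPM on the 3 days, and was the member farthest above sham on day 14. *Cst7*, which encodes cystatin F, had 0 reads in sham, 87 on day 7, 26 on day 10, and 0 on day 14. *Clec7a*, the beta-glucan receptor dectin-1, had 6, 108, 43, and 0 reads in the same order. *Lgals3*, which encodes galectin-3, had 6, 219, 10, and 1 reads, and its difference from sham on day 10 (0.62 on the log2 scale) was smaller than those of *Cst7* (2.096) and *Clec7a* (2.13). Homeostatic microglia genes were also above sham, with 6, 2, and 0 of 12 past 2-fold and medians of 1.05, 0.61, and 0.05. *Cx3cr1*, the fractalkine receptor, was 37.9 CPM in sham and 106, 65.3, and 41.4 CPM on days 7, 10, and 14.

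Complement genes, which tag debris and synapses for removal, were 2-fold higher in 12 of 12 members on day 7, and in 2 and 0 on days 10 and 14. The list median was 2.16, 0.82, and -0.04. *C1qa*, a chain of the first component, was 31.6 CPM in sham, 148 CPM on day 7, 62.3 CPM on day 10, and 26.7 CPM on day 14. *C4b* was 31.8 CPM in sham and 295, 149, and 34.2 CPM, and its reads may be shared with its near-identical copy *C4a*. *C3*, the central component, had 8 reads in sham and 134, 14, and 2 reads on the 3 days. *C3* is also made by liver, whose transcripts were present in the day 7 library. The receptors *C3ar1* (2.19 CPM in sham, 26.9 on day 7) and *C5ar1* (0.469 and 7.38 CPM) were at 4.41 and 0.378 CPM by day 10.

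Interferon-stimulated genes, the antiviral effectors and sensors downstream of interferon receptors, were 2-fold higher in 16, 6, and 1 of 18 members on days 7, 10, and 14, with medians of 1.80, 0.82, and 0.30. On day 14, 10 of 18 members were above sham by any amount. *Oasl2*, an oligoadenylate synthetase-like protein (chr5:114896926-114912245), was the 1 persisting gene of the time course. Its level was 1.96 CPM in sham, 20.8 CPM on day 7, 10.46 CPM on day 10, and 5.27 CPM on day 14. All 3 BCAS days stood above sham, at 10.6-fold (7.03 to 16.8), 5.35-fold (3.38 to 8.73), and 2.69-fold (1.63 to 4.56). In the libraries labelled TRPA1-KO, *Oasl2* was 2.88 CPM in sham and 1.89, 2.56, and 2.91 CPM. On day 14 its difference from the WT-labelled sham was 1.08 log2 units, just past the limit. The sham library labelled TRPA1-KO was 0.39 log2 units above the WT-labelled sham. Against the mean of both sham libraries, *Oasl2* was not past 2-fold on day 14 and so was not persisting. *Bst2*, which encodes the virus-tethering protein tetherin, was 1.72 CPM in sham and 13.8, 7.81, and 1.65 CPM on days 7, 10, and 14. *Lgals3bp*, a secreted galectin-binding protein, was 8.84 CPM in sham and 63.1, 34.3, and 11.3 CPM.

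Promoters were read from RefSeq (GRCm38.p6, 250 bases before to 50 after each gene's start), which matched 11868 of the 15232 tested genes. The core of the interferon-stimulated response element, searched as GAAANNGAA on both strands, was in 8 of 13 promoters of the interferon list (61.5%) and in 8.51% of all promoters. *Bst2* and *Ifit3*, the latter an interferon-induced RNA-binding protein, are shown because several matches lie in each. The MHC class I light chain gene *B2m* from the next list is shown with 1 match. In that list, 2 of 9 promoters (22.2%) held the core. Capitals mark the matches, and the 3 genes were chosen after the matches were seen.
Bst2: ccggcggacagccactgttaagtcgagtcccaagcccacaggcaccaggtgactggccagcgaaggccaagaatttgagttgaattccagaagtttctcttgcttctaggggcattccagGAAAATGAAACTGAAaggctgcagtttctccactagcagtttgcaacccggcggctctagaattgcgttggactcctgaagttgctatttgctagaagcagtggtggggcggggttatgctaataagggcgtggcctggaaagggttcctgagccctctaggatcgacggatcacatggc
Ifit3: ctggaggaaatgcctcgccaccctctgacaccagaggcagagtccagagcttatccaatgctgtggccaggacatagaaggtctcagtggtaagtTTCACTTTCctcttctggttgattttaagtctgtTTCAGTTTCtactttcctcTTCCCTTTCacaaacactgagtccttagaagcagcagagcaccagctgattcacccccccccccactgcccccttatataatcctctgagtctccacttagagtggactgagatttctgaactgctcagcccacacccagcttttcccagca
B2m: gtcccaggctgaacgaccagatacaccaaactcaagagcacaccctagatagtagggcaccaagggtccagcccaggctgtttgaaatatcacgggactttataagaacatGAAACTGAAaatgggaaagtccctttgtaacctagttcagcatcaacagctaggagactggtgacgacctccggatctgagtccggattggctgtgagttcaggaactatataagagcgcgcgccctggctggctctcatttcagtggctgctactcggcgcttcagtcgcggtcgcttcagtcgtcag
These stretches lie at chr8:71537423-71537722 (minus strand) for *Bst2*, chr19:34583279-34583578 (plus strand) for *Ifit3*, and chr2:122147437-122147736 (plus strand) for *B2m*. A match is a description of letters and not a bound site. Among the 88 early genes still past 2-fold on day 10, 15 of 65 promoters (23.1%) held the core, and among the 240 that were less than 0.5 above sham by then it was 24 of 192 (12.5%).

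Antigen presentation genes were about as far above sham on day 10 as on day 7. MHC class I genes, which display intracellular peptides, were 2-fold higher in 7, 7, and 0 of 11 members on days 7, 10, and 14, with medians of 1.36, 1.33, and -0.07. *H2-K1*, a class I heavy chain (chr17:33996012-34000619), was 23.7 CPM in sham, 70.4 CPM on day 7, 84.4 CPM on day 10, and 22.1 CPM on day 14. *H2-D1*, another heavy chain, was 39.7 CPM in sham and 104, 132, and 37.6 CPM, so both heavy chains were highest on day 10. *B2m* was 62.4 CPM in sham and 199, 181, and 59.4 CPM. *Tap1*, a chain of the peptide transporter, was 1.33 CPM in sham and 9.07, 5.29, and 2.19 CPM. *Nlrc5*, the class I transactivator, was 1.41 CPM in sham and 6.94, 5.42, and 1.54 CPM. The class I heavy chain genes are near-identical copies, so counting could have moved reads between them.

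MHC class II genes, which display peptides taken up from outside the cell, were low and had few reads. Of 7 members, 5, 4, and 0 were 2-fold higher on days 7, 10, and 14, with medians of 1.53, 1.34, and -0.21. The day 7 and day 10 medians were 2.34 and 2.42 with a pseudocount of 0.1, and 0.34 and 0.18 with a filter at a mean of 5 CPM, which 1 member, *H2-DMa*, passed. *Cd74*, the invariant chain, had 14 reads in sham, 67 on day 7, 71 on day 10, and 7 on day 14, which was 5.44-fold (3.03 to 10.48) and 8.17-fold (4.56 to 15.7) over sham on days 7 and 10. *H2-Aa* had 2 reads in sham and 30, 28, and 0 reads, and *H2-Eb1* had 5 reads in sham and 35, 20, and 0 reads. *Ciita*, the class II transactivator, differed in direction from the chains, at 5.48 CPM in sham and 3.29, 3.53, and 4.50 CPM. It overlaps *Dexi* on the opposite strand, and the library kit does not mark strand, so reads in the overlap cannot be told apart. All 4 class II promoters in RefSeq held a CCAAT box, as did 8 of 9 MHC class I promoters (88.9%) and 42.6% of all promoters. Whether the class II matches are the Y box of these promoters was not tested. *H2-Aa*, a class II alpha chain higher on day 10 than on day 7, is shown with its match in capitals, at chr17:34287774-34288073 on the minus strand.
H2-Aa: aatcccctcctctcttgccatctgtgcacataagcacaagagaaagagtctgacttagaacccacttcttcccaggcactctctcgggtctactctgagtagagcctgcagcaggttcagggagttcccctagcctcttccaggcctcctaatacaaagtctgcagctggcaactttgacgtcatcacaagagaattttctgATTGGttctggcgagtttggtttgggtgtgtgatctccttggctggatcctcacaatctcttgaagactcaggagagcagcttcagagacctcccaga
Of the T cell markers, *Cd4* alone passed the filter, at 14.3 CPM in sham and 8.98, 9.33, and 9.88 CPM on days 7, 10, and 14, so it was below sham on each day and made up most of the list's sum (14.4, 10.0, 11.5, and 9.98 CPM). The others had few reads: *Cd3e* had 0, 0, 2, and 1 reads in sham and on days 7, 10, and 14, *Cd3d* had 0, 1, 4, and 0, and *Cd8a* had 0, 4, 6, and 0. The chemokine *Ccl5* had 0, 3, 16, and 0 reads. Of 8 monocyte and neutrophil markers, 4, 2, 2, and 7 were at 0 reads in the same order, and *Ccr2*, the receptor of the chemokine CCL2, had 1, 20, 5, and 0 reads.

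Of the early genes, the share still past 2-fold on day 10 differed between lists. It was 6 of 7 for MHC class I and 4 of 5 for MHC class II, against 88 of 535 over all tested genes (16.4%). It was 4 of 9 for the pan-reactive list, 4 of 13 for the interferon list, 3 of 13 for disease-associated microglia, and 2 of 12 for complement. It was 0 of 8 for the cell cycle, 0 of 9 for matrix genes, and 0 of 7 for the A2 list. Cells and genes of 1 library are not replicates, so no test stands behind the order of these shares.

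**Figure D4:**
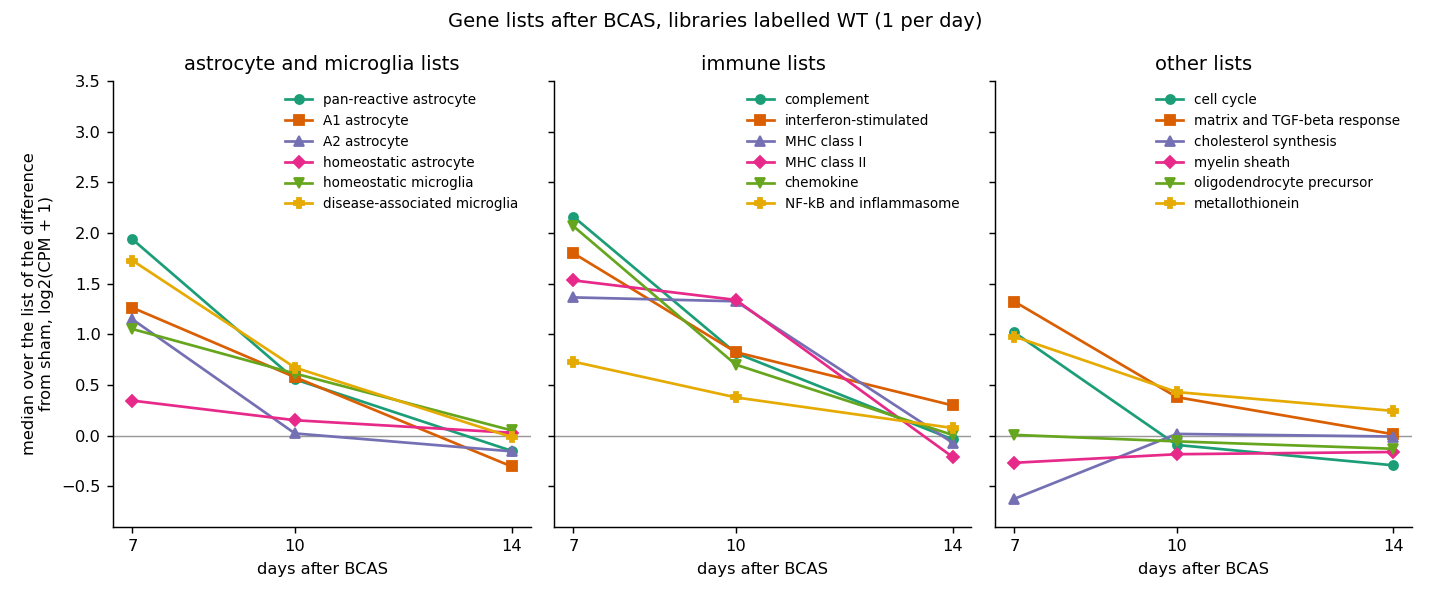
Median difference from sham, log2(CPM + 1), of 18 gene lists on days 7, 10, and 14, with 1 library per day and no error bar possible. Most lists that were above sham on day 7 came down in steps, the MHC class I (1.36, 1.33, -0.07) and class II (1.53, 1.34, -0.21) lists stayed level to day 10, and the cholesterol list was below sham on day 7 alone (-0.62).

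Cell cycle genes were above sham on day 7 only. All 15 members were above sham on that day, 8 of them by 2-fold, and 0 were past 2-fold on days 10 and 14, with medians of 1.02, -0.09, and -0.29. *Mki67*, the gene of the proliferation marker Ki-67, was 6.81 CPM in sham and 24.4, 6.68, and 5.16 CPM on days 7, 10, and 14. *Top2a*, which encodes topoisomerase II alpha, was 5.48 CPM in sham and 24.5, 6.68, and 5.27 CPM. *Cdk1*, the mitotic kinase, had 13 reads in sham and 61, 10, and 5 reads. The cell cycle genes homology region, searched as TTTGAA on both strands, was in 5 of 12 promoters of the list (41.7%) against 14.0% of all promoters, and the CCAAT box in 11 of 12. *Cdk1* carries a pair of TTTGAA matches, in capitals, and was chosen after they were seen (chr10:69352863-69353162, minus strand).
Cdk1: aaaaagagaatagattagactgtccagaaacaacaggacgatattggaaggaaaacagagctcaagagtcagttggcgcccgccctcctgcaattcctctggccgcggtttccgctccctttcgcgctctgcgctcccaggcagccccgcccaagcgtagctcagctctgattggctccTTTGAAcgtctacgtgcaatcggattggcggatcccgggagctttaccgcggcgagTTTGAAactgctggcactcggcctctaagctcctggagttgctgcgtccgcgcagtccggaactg
Early genes that were less than 0.5 above sham on day 10 held TTTGAA in 50 of 192 promoters (26.0%), and those still past 2-fold on day 10 in 9 of 65 (13.8%).

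**Figure D5:**
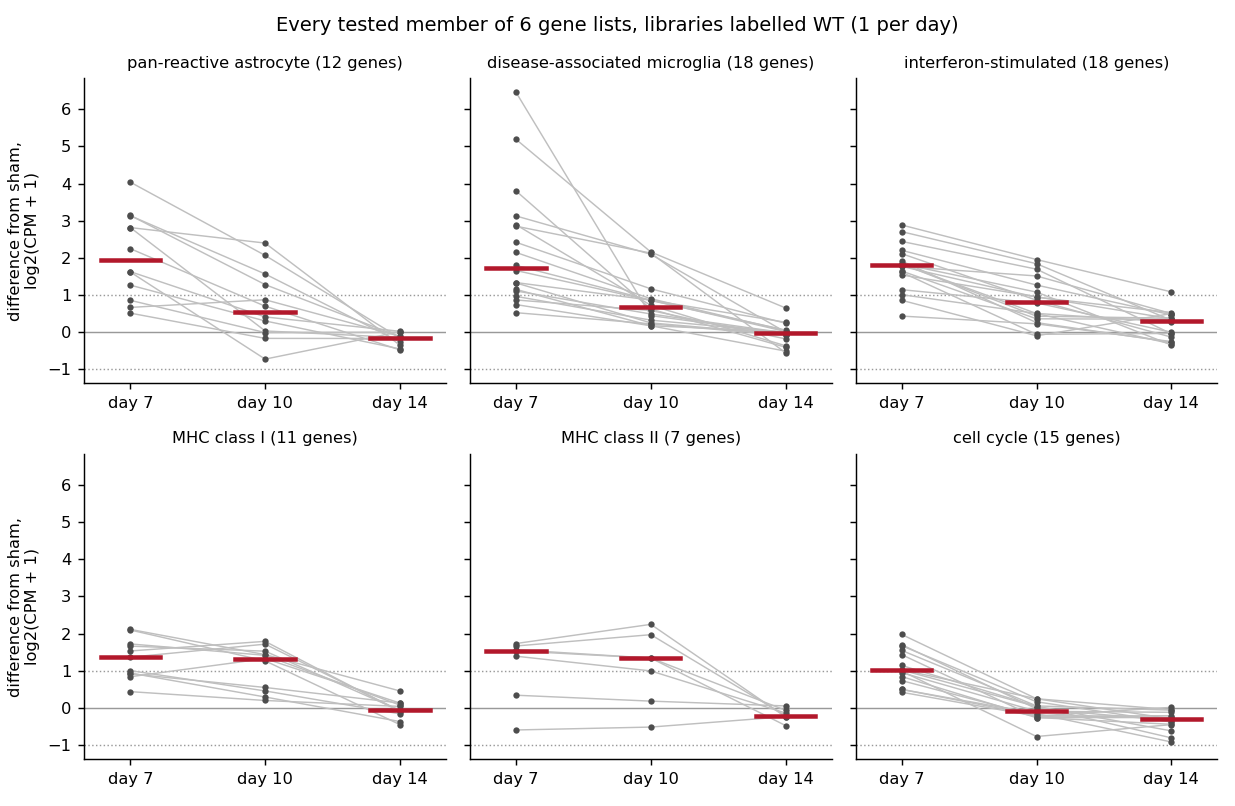
Difference from sham, log2(CPM + 1), of every tested member of 6 gene lists on days 7, 10, and 14, with gray lines joining the values of a gene, red bars at the list median, and dotted lines at 2-fold. The MHC medians stay at 1.33 and 1.34 on day 10, whereas the cell cycle median is at -0.09 by then, and on day 14 *Oasl2* (1.08) is the single point above 2-fold.

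Matrix and TGF-beta response genes were 2-fold higher in 9, 0, and 0 of 15 tested members, with medians of 1.32, 0.38, and 0.01. *Thbs1*, which encodes the matrix protein thrombospondin 1, was 1.02 CPM in sham and 27.8, 1.76, and 1.10 CPM on days 7, 10, and 14. *Fn1*, which encodes fibronectin, was 61.7 CPM in sham and 187, 73.2, and 61.8 CPM. *Timp1*, an inhibitor of matrix metalloproteinases, had 11 reads in sham and 53, 1, and 8 reads. *Fn1* is also a liver product.

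Chemokine genes were sparse, and 7 of 13 passed the filter. Of these, 5, 0, and 0 were 2-fold higher on the 3 days, with medians of 2.07, 0.70, and 0.01. The medians depend on the filter, which several members passed through day 7 alone: over all 13 genes they were 1.28 and 0 on days 7 and 10, and at a mean of 5 CPM, where *Cxcl12* and *Cx3cl1* remain, they were -0.43 and -0.16. *Ccl3*, *Ccl4*, and *Ccl12*, which draw myeloid cells, had 2, 0, and 6 reads in sham, 52, 44, and 58 on day 7, and 10, 5, and 3 on day 10. *Ccl2* and *Ccl7* did not pass the filter and had 35 and 16 reads on day 7 and 0 reads in the other 3 libraries. *Cxcl12* and *Cx3cl1*, chemokines made in healthy brain, ran the other way on day 7, at 72.0 and 624 CPM in sham and 51.4 and 478 CPM on day 7. Of the NF-kB and inflammasome list, 5, 2, and 0 of 11 were 2-fold higher. *Tlr2*, a receptor for bacterial lipoproteins, was 0.391 CPM in sham and 10.6, 6.18, and 0.549 CPM. The cytokine genes *Il1b* (8, 4, 10, and 4 reads) and *Tnf* (0, 1, 0, and 0 reads) stayed at counts too low to compare.

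The LIF family and STAT3 list had a few members above sham on day 7. Of 15 genes, 11 passed the filter, and 3, 0, and 0 were 2-fold higher on days 7, 10, and 14, with medians of 0.58, 0.22, and -0.02. With the filter at a mean of 5 CPM the day 7 median was 0.14. *Lif*, the cytokine itself, had 7 reads in sham and 15, 4, and 3 reads, and the counting interval on day 7 (2.44-fold, 0.935 to 7.06) included 1, so a difference was not detectable at this depth. *Cntf*, a related cytokine, had 11 reads in sham and 26, 16, and 15 reads, and *Clcf1*, another, had 15 in sham and 60, 8, and 13. *Socs3*, the feedback inhibitor of STAT3 signaling, was 2.82 CPM in sham and 10.49, 3.78, and 1.87 CPM. *Osmr*, the oncostatin M receptor, was 6.96 CPM in sham and 18.1, 8.82, and 4.83 CPM. *Stat3* itself was 49.7 CPM in sham and 93.4, 58.1, and 55.4 CPM.

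Single stress genes stood high on day 7, while most members of their lists did not pass 2-fold. *Hmox1*, the heme-degrading enzyme, was 3.36 CPM in sham and 35.4, 5.17, and 4.28 CPM on days 7, 10, and 14. *Atf3*, a transcription factor of the stress response, had 10 reads in sham and 141, 4, and 3 reads. Of the lists that hold them, 1 of 9 antioxidant genes, 1 of 11 integrated stress response genes, and 2 of 15 hypoxia genes were 2-fold higher on day 7. Among heat shock genes it was 0 of 11, and among all tested genes 3.76%. *Hmox1* is counted in both the antioxidant and the hypoxia lists. The hypoxia medians were 0.17, -0.10, and 0.02. Among the metallothioneins, metal-binding proteins of astrocytes, *Mt1* was 191 CPM in sham and 377, 258, and 226 CPM, and *Mt2* was 104 CPM in sham and 216, 131, and 104 CPM.

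Cholesterol synthesis genes were below sham on day 7 and at sham on days 10 and 14. All 16 were below sham on day 7, 0 of them by 2-fold, with medians of -0.62, 0.02, and -0.01. *Hmgcs1*, an early enzyme of the pathway, was 332 CPM in sham, 169 CPM on day 7, 342 CPM on day 10, and 314 CPM on day 14. In the libraries labelled TRPA1-KO, the list median was 0.23, 0.08, and 0.01. Myelin sheath genes were slightly below sham throughout: 0 of 14 passed 2-fold on any day, 2, 3, and 0 members were above sham, and the medians were -0.27, -0.18, and -0.16. The medians of the libraries labelled TRPA1-KO were -0.39, -0.32, and -0.16 against their sham. Oligodendrocyte precursor genes had medians of 0.01, -0.06, and -0.13, with 0 of 10 past 2-fold, and differentiating oligodendrocyte genes 0.05, 0.02, and -0.11, with 0 of 11. *Pdgfra*, the receptor that marks the precursors, was 68.8 CPM in sham and 57.5, 52.7, and 60.3 CPM.

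Vessel lists differed from one another on day 7. Of 12 genes of the blood-brain barrier endothelium, 0 were past 2-fold on any day, and the medians were 0.04, -0.02, and -0.05. Of 7 genes of activated endothelium, 2 were 2-fold higher on day 7: *Icam1*, the leukocyte adhesion molecule (1.72 CPM in sham, 8.80 on day 7, 2.90 and 1.43 after), and *Angpt2* (12 reads in sham and 41, 11, and 12). The list was above sham in 6 of 7 members on day 7, with medians of 0.61, -0.03, and -0.18, and the day 7 median was 0.15 with the filter at 5 CPM. Pericyte and smooth muscle genes had medians of 0.51, -0.01, and -0.10, and 0.33 on day 7 with no filter. *Myh11*, the smooth muscle myosin, was 9.94 CPM in sham and 4.45, 2.14, and 5.82 CPM, lowest on day 10. Among neuronal lists, 5 of 10 striatal projection neuron genes were 2-fold lower on day 7, with medians of -0.98, -0.41, and -0.56. The same list was at -1.28, -0.49, and -0.60 in the libraries labelled TRPA1-KO. Cortical excitatory neuron genes had medians of -0.15, 0.03, and 0.12. *Nrgn*, a calmodulin-binding protein of cortical neurons, was 1873 CPM in sham and 937, 1044, and 1815 CPM.

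The 18 genes of the day 10 course that were lower included *Fkbp5* and *Hif3a* of the glucocorticoid response list, genes that the glucocorticoid receptor is known to activate. *Plin4*, a lipid droplet coat protein that is not on the list (chr17:56100587-56109948), was 35.2 CPM in sham, 37.9 CPM on day 7, 3.65 CPM on day 10, and 46.2 CPM on day 14. Day 10 was 0.104-fold of sham (0.0687 to 0.151). *Fkbp5*, the receptor co-chaperone (chr17:28398753-28486149), was 49.4 CPM in sham and 50.7, 20.04, and 45.8 CPM, and *Hif3a*, a hypoxia-inducible factor subunit, was 20.1 CPM in sham and 22.7, 7.18, and 22.4 CPM. *Edn1*, the vasoconstrictor endothelin 1 and also not on the list, had 43 reads in sham and 39, 6, and 22 reads. Of the 10 listed glucocorticoid response genes, 3 were 2-fold lower on day 10, against 0.269% of all tested genes, with list medians of 0.16, -0.24, and 0.03. They were *Fkbp5*, *Hif3a*, and the zinc finger gene *Zbtb16*. The last was 120.0 CPM in sham and 78.3, 48.8, and 124 CPM, too far below sham on day 7 for the day 10 course. In the libraries labelled TRPA1-KO, *Plin4* was 61.6 CPM in sham and 7.01, 10.1, and 36.1 CPM, so low values occurred on days 7 and 10 there. Under that label *Fkbp5* was 45.7 CPM in sham and 27.1, 28.4, and 42.4 CPM, and *Hif3a* was 24.3 CPM in sham and 12.5, 10.1, and 22.4 CPM. The list medians under that label were -0.42, -0.40, and -0.25, below sham on each day. *Doc2g*, a C2 domain protein, had 94 reads in sham and 57, 19, and 62, and *Gm3002*, a predicted gene of a repeated family, had 56 and 62, 10, and 32.

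The 16 genes of the day 10 course that were higher held 11 distinct sets of values, since several symbols carry the same numbers. *H2-Q5*, a class I-like gene among near-identical copies (chr17:35394099-35395630), had 3 reads in sham and 8, 37, and 0 reads. *Hbb-bs* and *Hbb-b1* shared 125 reads in sham and 10, 200, and 3 reads, and *Hbb-bt* and *Hbb-b2* shared 87 and 2, 153, and 4 reads. All 4 symbols were below sham on days 7 and 14. These are beta-globin genes of red blood cells, whose markers summed highest on day 10. *Fendrr*, a long noncoding RNA, had 11 reads in sham and 16, 27, and 14 reads.

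Late genes were few and mostly low. *Gstp2*, a glutathione transferase (chr19:4040288-4042221), was 125 CPM in sham, 122 CPM on day 7, 102 CPM on day 10, and 24.6 CPM on day 14, when it was 0.197-fold of sham (0.170 to 0.227). The day 14 library labelled TRPA1-KO was also the lowest of its label, at 63.7 CPM against 157 CPM in its sham. *Gstp2* has a near-identical neighbour, *Gstp1*, so the split of reads between them is uncertain. *Ly6c2*, a monocyte surface antigen with a near-identical copy, had 27 reads in sham, 38 and 29 on days 7 and 10, and 0 on day 14, at least 6.42-fold lower with day 14 set at 3 reads. *Pclaf*, a PCNA-associated factor of dividing cells, had 46 reads in sham and 80, 11, and 8, and *Emp1*, a membrane protein on the A2 list, had 41 and 111, 22, and 7, so both were above sham on day 7 (by 0.82 and 1.37 on the log2 scale) and below it on day 14. *Xlr3b*, an X-linked gene of a repeated family, had 106 reads in sham and 108, 23, and 21, and *Crocc2*, a ciliary rootlet gene, had 42 and 29, 20, and 7. The late genes that were higher were the histone H2B genes *H2bc11* (8 reads in sham and 5, 1, and 27) and *Hist1h2br* and *Hist1h2bq* (17 reads in sham and 21, 13, and 40, the same values for both), and *Adamts13*, the von Willebrand factor protease (7 reads in sham and 12, 13, and 20). With symbols of the same values counted once, 3 late genes were higher.

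Of the 16 early genes that were lower, *Actn2*, an actin-crosslinking protein, was 36.8 CPM in sham and 15.4, 24.7, and 26.4 CPM on days 7, 10, and 14. *Kcng1*, a potassium channel subunit, was 13.6 CPM in sham and 5.69, 11.2, and 13.1 CPM. *Ghrl*, the ghrelin gene, had 29 reads in sham and 4, 12, and 15. *Slc22a3*, an organic cation transporter, had 35 and 8, 15, and 19 reads, *Myocos* 24 and 3, 20, and 13, and *Gm10408* 41 and 10, 16, and 38. Day 7 was lowest for each of these 6 genes.

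A slope of postoperative day was then fitted over the 3 BCAS libraries with limma on log2(CPM + 1), the sham library having its own term. This leaves 1 residual degree of freedom, shared across genes, and favors genes that change in even steps. With an adjusted p (Benjamini-Hochberg, two-sided) under 0.05, 328 genes fell with day (2.15%) and 49 rose (0.322%). Their sum of 377 became 688 on library totals, 571 with edgeR, 199 with a filter at 5 CPM, and 0 with no filter. *Vim* had the smallest p, with a slope of -0.48 log2 units per day (standard error 0.021, limma adjusted p = 1.02e-07), followed by *Serpina3n* (-0.60, standard error 0.026, limma adjusted p = 1.02e-07) and *C4b* (-0.44, standard error 0.025, limma adjusted p = 1.96e-06). The genes that rose with the smallest p were *Etv5*, an ETS transcription factor (103 CPM on day 7, 143 on day 10, 189 on day 14, and 172 in sham), *Camk1g*, a calcium-dependent kinase (20.4, 23.4, 48.8, and 33.2 CPM), and *Diras2*, a small GTPase (304, 422, 549.6, and 499 CPM). Slopes were 0.12 (limma adjusted p = 0.0048), 0.18 (limma adjusted p = 0.0075), and 0.12 (limma adjusted p = 0.0080) in that order, and day 7 was below sham for all 3.

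Read against the 2.15% of all genes that fell, 14 of 18 disease-associated microglia genes fell with day, as did 9 of 12 complement, 7 of 12 pan-reactive astrocyte, 7 of 12 homeostatic microglia, 6 of 12 A1, 4 of 11 A2, 9 of 18 interferon-stimulated, 8 of 15 matrix, 6 of 11 MHC class I, and 3 of 15 cell cycle genes. For MHC class II it was 0 of 7, with a median slope of -0.23. In each of these lists, 0 genes rose. A falling slope is not a steady fall: the class I genes counted include *H2-K1* and *H2-D1*, which were highest on day 10. *Serping1*, *H2-D1*, and *Psmb8* are counted under A1 and again under complement or MHC class I. Of 16 cholesterol synthesis genes, 2 rose with day (*Sqle*, squalene epoxidase, and *Srebf2*, the pathway's transcription factor), and 0 of 14 myelin genes rose or fell. *Spp1* (109-fold on day 7) fell, as did *Cxcl10*, *Tgm1*, and *Gfap*, whereas *Lcn2* did not pass the test. For the genes that fell, the day 7 library, which held the liver transcripts, is the high end of the slope.

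BCAS was also fitted against sham with the 3 BCAS days taken as replicates. Change between the days counts as error in this fit, so genes that were high on day 7 and faded can hardly be called. *Gfap* and *Serpina3n*, on average 1.62 and 1.98 log2 units above sham, are such genes. The fit therefore cannot show that BCAS and sham were alike. With limma on the same scale (2 residual degrees of freedom, the single sham library assumed to vary like the BCAS libraries), 0 genes had an adjusted p under 0.05 (0.0%), and 155 had an unadjusted p under 0.05. The edgeR quasi-likelihood test on the recovered reads also gave 0, with 198 at an unadjusted p under 0.05. The smallest unadjusted p belonged to *Erdr1*, at 110.4 CPM in sham and 54.1, 68.8, and 59.7 CPM (limma adjusted p = 0.99995). *Npas4*, a neuronal immediate early factor, was also among the 3 lower genes with the smallest p, at 32.0 CPM in sham and 17.3, 18.3, and 17.9 CPM. The leading higher genes were *Gm2274* and *Gm2260*, which share 56.7 CPM in sham and 95.3, 84.3, and 87.1 CPM, and *Tshz2*, a zinc finger factor, at 35.1 CPM in sham and 63.7, 58.9, and 52.7 CPM. In these genes the 3 BCAS days stayed together on the same side of sham. The fit ranks such genes first, so this agreement follows from how they were chosen.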

How the data were processed

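Polyadenylated RNA of the corpus callosum was sequenced on an Illumina NovaSeq from 1 mouse library per operation, day, and label. Per the labels, the authors mapped reads to GRCm38 with HISAT2, counted them per gene with featureCounts of Subread, and normalized them with edgeR. The annotation and the strand setting are not given in the sources used here, and the library kit does not mark strand, so reads of overlapping genes such as *Tap1* and *Psmb9*, *B2m* and *Patl2*, or *Plin4* and *Hdgfl2* cannot be told apart. The deposited signal, as made by the authors, is a read count over each library's effective size, expressed as CPM and not logged. All values (100%, tolerance 0.01 reads) were whole multiples of 1 read's value, so whole reads were recovered for the counting intervals (95% Clopper-Pearson).

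Differences were taken on log2(CPM + 1), a pseudocount of 1, for genes averaging 1 CPM or more in the 4 libraries labelled WT. The slope of day and BCAS against sham were fitted with limma 3.58.1 (lmFit, eBayes with trend) in R 4.3.3, and edgeR 4.0.16 was run on the recovered reads as an alternative. The slope p-values rest on how far the 3 BCAS libraries lie from a straight line. Those of BCAS against sham rest on the spread among the 3 BCAS libraries. With 1 library per day, neither measures the spread between mice of the same day. On simulated reads for 15232 genes, 200 of them changed 4-fold from day 7 to day 14, the slope fit called 92.5% of the changed genes, and for 2-fold changes it called 63.5%. The simulated reads had a fixed dispersion, changes in a straight line over the days, and no admixed tissue. These shares therefore need not hold for the real libraries. Named genes were the 6 with the largest difference per course and direction, up to 6 members per list with the largest difference on its leading day, genes the study names for the sequencing, and the 3 smallest p per direction and fit. Other genes printed from the lists (such as T cell markers, *Il1b*, *Tnf*, *Ccl2*, *Ccl5*, *Ccl7*, *Cx3cl1*, or those with a promoter shown) and the liver list were chosen after their values were seen. Some genes that these rules name are not reported here. The members and gene lists were chosen with earlier results of these data known. Positions and promoters come from RefSeq (GRCm38.p6) and overlaps from GENCODE M21. Alternatives were a pseudocount of 0.1, a filter at 5 CPM or none, other scalings, limma's robust option, both sham libraries as reference, and each BCAS library left out.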

Additional observations from a re-analysis of the deposited data

Results flagged for a closer look

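Red blood cell markers differed in direction between labels on day 10. The median difference from sham of the 4 tested globin genes was 1.09 in the library labelled WT and -3.52 in the one labelled TRPA1-KO, each against its own sham. Every one of the 4 genes was above sham under the first label and below it under the second. With 1 library each the difference was not tested, and the markers also differed between the sham libraries, at 63.3 CPM in sum under the label WT and 202 CPM under the label TRPA1-KO.

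*Trpa1* reads appeared outside the libraries described here: the 4 libraries labelled TRPA1-KO held 31 reads of the gene, against 1 read in the 4 labelled WT. The deleted stretch of the gene is not given in the sources used here, so what these reads cover was not tested.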

How the results depend on the processing

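Of 106 values that answer a comparison, 69 stayed within 1.5 times of the value reported and 37 moved further. The cause of these moves was not tested unless stated. A pseudocount of 0.1, which gives low genes more weight, counted 107 genes lower on day 7, 347 higher and 171 lower on day 10, and 66 higher and 189 lower on day 14. Its courses held 27 persisting, 18 late, and 26 day 10 genes that were higher, and 55 early, 7 persisting, 143 late, and 66 day 10 genes that were lower. A filter at a mean of 5 CPM, which tests 12489 genes, left 281 higher and 27 lower on day 7, 66 and 13 on day 10, and 1 and 14 on day 14. It left 264 early, 0 late, and 7 day 10 genes higher and 6 early, 5 late, and 8 day 10 genes lower, and the chemokine medians turned to -0.43 on day 7 and -0.16 on day 10, since *Cxcl12* and *Cx3cl1* alone passed it. The same filter gave day 7 medians of 0.73 for the A2 list and 0.03 for hypoxia genes, and a day 10 median of 0.87 for the pan-reactive list. Without a filter, 13 genes were higher on day 14, with 9 late and 25 day 10 genes higher. With the mean of both sham libraries as reference, 3 genes were higher on day 14, 1 late and 8 day 10 genes were higher, and 3 persisting and 10 late genes were lower, and the barrier endothelium medians were 0.19 and 0.15 on days 7 and 10. Against that reference *Oasl2* was not persisting. The slope fit called 377 genes, against 199 with the 5 CPM filter, 0 with no filter, 688 on library totals, and 571 with edgeR. BCAS against sham called 0 to 3 genes with a BCAS library left out, the 3 without day 14. No paired analysis was possible because each day and label had 1 library. Of 540 other values, 479 stayed, 59 moved, and the 2 chemokine medians reversed. Depth limits genes with under about 3 reads, and with 1 library per day no difference from sham has a replicate check.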

Other observations

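Immediate early genes, which neurons and glia switch on within minutes of activity, were below sham on day 14, when 1 of 13 was above it, with list medians of -0.25, -0.09, and -0.46 on days 7, 10, and 14. In the libraries labelled TRPA1-KO the medians were 0.39, 0.52, and -0.69. *Egr2*, a zinc finger factor, was 17.7 CPM in the WT-labelled sham library and 7.38, 10.1, and 7.24 CPM on the 3 days. Respiratory chain genes had medians of -0.13, -0.02, and -0.02, with 0 of 18 past 2-fold. Ependymal genes, which mark the ciliated lining of the ventricle next to the callosum, had medians of 0.45, 0.19, and -0.11, and *Foxj1*, the regulator of motile cilia, was 8.997 CPM in sham and 16.01, 11.97, and 8.67 CPM. The choroid plexus gene *Ttr*, also a liver product, had 4 reads in sham and 50, 3, and 7 reads. Meningeal fibroblast genes had medians of 0.32, -0.02, and -0.39, border macrophage genes 0.03, -0.31, and -0.05 (3 of 7 tested), neuroblast genes 0.08, -0.07, and -0.22, and inhibitory neuron genes -0.01, 0.07, and 0.08.

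On day 14, several immune lists were above their own sham in the library labelled TRPA1-KO while near sham in the one labelled WT. The medians were 0.35 against -0.04 for complement, 0.39 against -0.21 for MHC class II (a list of few reads), and 0.32 against 0.05 for homeostatic microglia. Other immune lists were close between the labels, at 0.39 against 0.30 for interferon-stimulated genes, 0.10 against 0.08 for NF-kB and inflammasome genes, and 0.03 against 0.01 for chemokines. *Gfap* was 427 CPM in that library and 157 CPM in the WT-labelled day 14 library, next to 234 and 200.4 CPM in the respective sham libraries. With 1 library each, these differences were not tested.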
